A study of Homo sapiens with 9 samples.

Results

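The replication-dependent histone genes encode the core histones H2A, H2B, H3 and H4 and the linker histone H1, and were taken here as every listed gene whose symbol begins with HIST1H, HIST2H, HIST3H or HIST4H. Of 32906 genes with a value, 71 met this rule: 7 of class H1, 16 H2A, 22 H2B, 12 H3 and 14 H4. The HIST1 cluster on chromosome 6 held 52 of them, HIST2 held 14, HIST3 held 4 and HIST4 held 1. In GENCODE 29, 61 were protein-coding genes and 9 were pseudogenes, and the identifier listed for HIST2H2BC was absent there. Members were picked by symbol alone, but the choice of this gene family was made with earlier results of these data known.

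RNA-seq was run on 9 libraries of cells labelled Huh7, a human hepatocellular carcinoma line, each transfected for 48 h. The Scramble group received a non-targeting siRNA, and Si-KDM4C#1 and Si-KDM4C#2 received siRNAs of different sequence against KDM4C, a demethylase of histone H3 lysine residues, with 3 libraries in each group. All values are those of whole cultures of a single cell line, and both knockdown groups were compared with the same 3 Scramble libraries. The comparisons ask whether histone gene mRNA changed when KDM4C was silenced and whether the change was alike with each siRNA.

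Histone genes of these clusters are switched on together at the start of S phase, when new nucleosomes are needed for replicated DNA, through the coactivator NPAT under control of cyclin E and its kinase. Their mRNAs are unusual in that most end in a conserved stem-loop, bound by the stem-loop binding protein SLBP, rather than in a poly(A) tail, and they are degraded when DNA synthesis stops. Some of the genes also give polyadenylated transcripts, which end farther downstream and occur in differentiated or non-dividing cells. How the RNA was selected before sequencing is not given in the sources used here, so a change in the amount of an mRNA and a change in the form of its 3′ end cannot be told apart in these values.

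The libraries were of similar depth, with 14597503 to 18058556 fragments estimated from the deposited values. KDM4C itself was at 4.69 ± 0.167 FPKM (SD, n = 3) in Scramble, 1.14 ± 0.0395 under Si-KDM4C#1 and 0.287 ± 0.0535 under Si-KDM4C#2 (FPKM, fragments per unit of transcript length and per fixed number of fragments). The log2 fold change of KDM4C was -1.41 under Si-KDM4C#1 and -2.15 under Si-KDM4C#2, both past the test (limma, adjusted p = 2.65e-07 and 5.45e-08). Of 12 genes that define hepatocytes, 9 were listed and all 9 were under 1 FPKM in every library, among them AFP, APOA1, SERPINA1 and HNF4A, with 0.128 FPKM as the highest value. AFP was listed at 0 in 8 of the 9 libraries labelled Huh7, and HNF4A was above 0 in all of them, at up to that value. The other 3 markers were not analysed here.

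The stem-loop is shown first because it is the element that sets these mRNAs apart from others. The letters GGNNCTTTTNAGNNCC, which allow a paired stem around a loop of 4 bases, were searched for in the GENCODE 29 transcripts of 70 members and found in 33. The versions that occurred are given here 5′ to 3′ as DNA with the loop in capitals and are named by the classes that carried them.
H2A, H2B and H3, 18 genes: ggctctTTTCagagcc
H2B and H3, 5 genes: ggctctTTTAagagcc
H2A and H2B, 2 genes: ggctctTTTCagggcc
H4, 5 genes: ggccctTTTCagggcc
H4, 3 genes: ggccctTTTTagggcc
The H4 versions occurred in no gene of another class, and no H4 gene carried a version of the other classes. Among 19613 other protein-coding genes the same letters occurred in 28 (0.143%) on the transcript strand and in 24 (0.122%) on the opposite strand. The 37 members without a match include genes such as HIST1H1C, HIST1H2BK and HIST1H3B, whose annotated transcripts of 642, 381 and 411 bases stop before the place where a stem-loop would lie, so the missing match says nothing about their mRNA.

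Promoters were examined because histone genes are known for compact promoters. RefSeq windows (GRCh38.p14) matched 54 of the 71 members, and the 250 bases before the start site were searched on both strands. TATAAA occurred in 36 of 54 members and in 10.7% of 35116 promoters. CCAAT occurred in 44 of 54 members and in 32.0% of all promoters, and it was found in 1 of 11 H4 genes. ATTTGCAT, the octamer known as a binding site of OCT1, occurred in 23 of 54 members and in 1.63% of all promoters. The octamer was confined to H2A (10 of 12) and H2B (13 of 17) among the classes searched. The 150 bases before the start site are given for the 3 members of the highest mean level (HIST1H2BK, HIST1H1C and HIST3H2A) and for HIST1H2AC, with matches to the 3 motifs on either strand in capitals.
HIST1H1C, chr6:26056471-26056620, minus strand: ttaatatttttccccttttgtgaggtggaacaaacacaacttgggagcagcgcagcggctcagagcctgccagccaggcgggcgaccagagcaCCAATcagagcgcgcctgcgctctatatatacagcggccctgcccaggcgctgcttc
HIST1H2BK, chr6:27146859-27147008, minus strand: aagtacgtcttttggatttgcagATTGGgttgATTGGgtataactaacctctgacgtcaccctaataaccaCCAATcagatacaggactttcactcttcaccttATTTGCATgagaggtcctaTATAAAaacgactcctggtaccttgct
HIST1H2AC, chr6:26124022-26124171, plus strand: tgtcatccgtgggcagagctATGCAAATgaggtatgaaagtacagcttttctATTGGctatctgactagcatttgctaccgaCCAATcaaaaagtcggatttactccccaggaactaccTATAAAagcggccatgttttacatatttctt
HIST3H2A, chr1:228457874-228458023, minus strand: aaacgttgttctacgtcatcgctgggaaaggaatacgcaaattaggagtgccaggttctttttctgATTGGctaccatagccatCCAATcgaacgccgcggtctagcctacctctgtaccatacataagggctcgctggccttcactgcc
HIST1H2BK and HIST1H2AC carried all 3 motifs, whereas HIST1H1C and HIST3H2A carried the CCAAT motif alone in the stretch shown.

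Histone gene levels were low for most members and high for a few. The minimum for testing, a group mean of 1 FPKM or more in any group, was reached by 35 of the 71 members: 3 H1, 8 H2A, 11 H2B, 7 H3 and 6 H4. HIST1H1PS1 lay just inside this limit with a highest group mean of 1.00 FPKM, and HIST1H3A lay just outside it with 0.969. The other 36 members had a median level of 0.182 FPKM and a highest single value of 1.41 FPKM, and 27 of them were listed at 0 in at least 1 library. Among the tested members, 3 averaged over 10 FPKM over all libraries (HIST1H2BK, HIST1H1C and HIST3H2A), 16 lay between 2 and 10 FPKM and 16 at 2 FPKM or less. The plot of FPKM by library shows this range for each class.

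**Figure D1:**
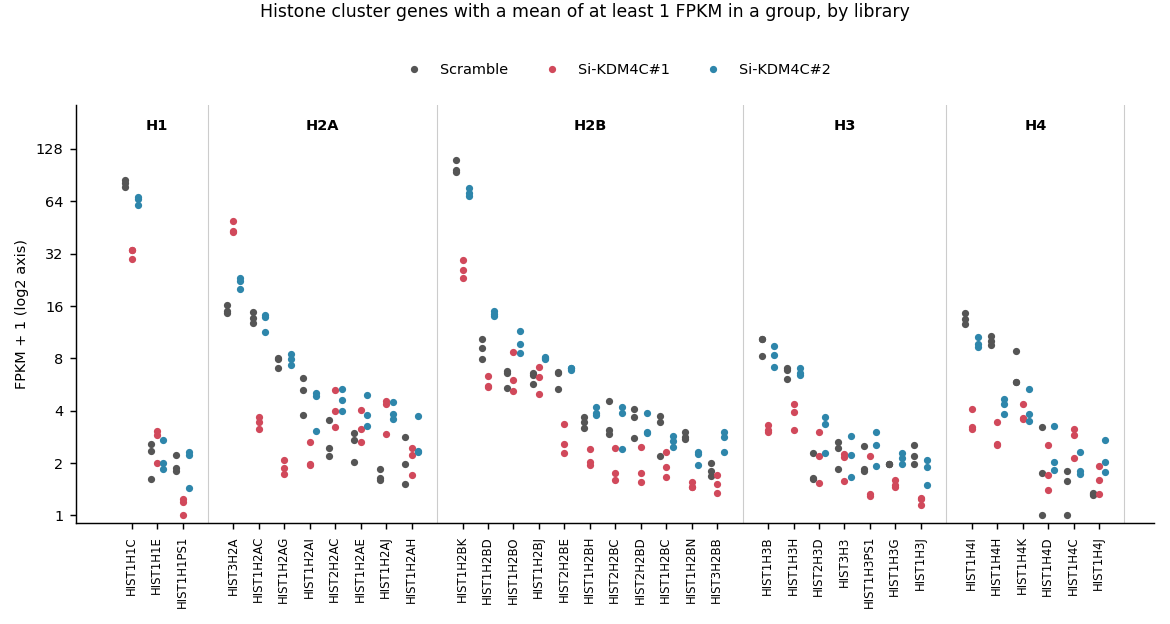
FPKM + 1 (log2 axis) of the 35 tested histone cluster genes in each of the 9 libraries, grouped by histone class and coloured by siRNA group, with each point a library. HIST1H2BK, HIST1H1C and HIST3H2A stand above the rest, and the Si-KDM4C#1 points lie below the Scramble points for the first pair and above them for HIST3H2A.

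Summed histone mRNA was much lower under Si-KDM4C#1 than in Scramble and slightly lower under Si-KDM4C#2, the latter resting on HIST1H2BK and HIST1H1C. The sum over all 71 members was 319 ± 7.54 FPKM (SD, n = 3) in Scramble, 164 ± 8.46 under Si-KDM4C#1 and 289 ± 3.39 under Si-KDM4C#2, and the 3 groups did not overlap. Without HIST1H2BK and HIST1H1C it was 139.5 ± 4.28 FPKM in Scramble, 108 ± 3.57 under Si-KDM4C#1 and 153.6 ± 3.05 under Si-KDM4C#2, above Scramble. These sums are descriptions, and in whole cultures fewer cells in S phase and less histone mRNA per cell cannot be told apart. The linker histone H1 went from 83.1 ± 3.56 FPKM in Scramble to 33.4 ± 1.77 under Si-KDM4C#1 and 66.2 ± 2.80 under Si-KDM4C#2. H2B went from 140 ± 9.30 to 49.4 ± 4.87 and 122 ± 3.47 FPKM. H3 stood at 20.6 ± 1.88 FPKM in Scramble, 10.1 ± 0.355 under Si-KDM4C#1 and 21.7 ± 1.91 under Si-KDM4C#2. H4 was at 32.0 ± 2.31 FPKM in Scramble, 11.7 ± 1.26 under Si-KDM4C#1 and 22.1 ± 1.26 under Si-KDM4C#2. Every library of both knockdown groups lay below every Scramble library for H1, H2B and H4, whereas H3 overlapped Scramble under Si-KDM4C#2. The H2A sum went the other way, from 43.8 ± 2.63 FPKM in Scramble to 59.4 ± 2.81 and 56.5 ± 4.39.

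Single genes made up much of some sums. HIST1H1C was 95.9% of the mean H1 level, HIST1H2BK 63.0% of H2B and HIST3H2A 49.5% of H2A. Without HIST3H2A the H2A sum was 29.6 ± 1.80 FPKM in Scramble, 15.5 ± 1.08 under Si-KDM4C#1 and 35.5 ± 3.34 under Si-KDM4C#2, so its direction under Si-KDM4C#1 rested on that gene. Without HIST1H2BK the H2B sum was 40.2 ± 1.29 FPKM in Scramble, 24.3 ± 1.90 under Si-KDM4C#1 and 50.7 ± 0.993 under Si-KDM4C#2, above Scramble with the second siRNA where the whole sum was below it.

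**Figure D2:**
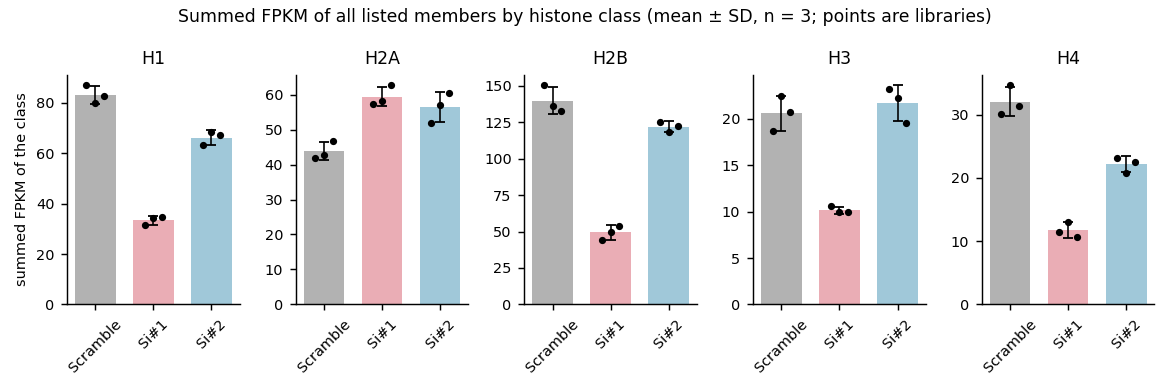
Summed FPKM of all listed members of each histone class in the 3 groups; bars are means, error bars are SD (n = 3) and points are libraries. H1, H2B, H3 and H4 were lowest under Si-KDM4C#1, at 33.4, 49.4, 10.1 and 11.7 FPKM, and H2A was lowest in Scramble, at 43.8 FPKM.

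Gene by gene, the decline was a feature of Si-KDM4C#1. A gene was called when its false discovery rate was below 0.05 and its fold change above 2 on the log2(FPKM + 1) scale, a scale that understates the change of low genes. With Si-KDM4C#1, 9 of the 35 tested members were called lower and 2 higher than Scramble, against 4.83% and 4.04% of all 14363 genes tested. With Si-KDM4C#2, 1 was called lower and 1 higher, against 2.3% and 2.6% of all genes. Between the siRNAs, 8 members were called higher and 1 lower under Si-KDM4C#2 than under Si-KDM4C#1, against 4.41% and 2.49% of all genes. The median log2 fold change of the tested members was -0.65 under Si-KDM4C#1, 0.05 under Si-KDM4C#2 and 0.59 between the siRNAs, beside -0.03, 0.06 and 0.08 over all genes tested. At the false discovery rate alone, 4 members were higher and 20 lower under Si-KDM4C#1, against 31.7% and 33.9% of all genes. At the same limit 10 were higher and 6 lower under Si-KDM4C#2, against 34.4% and 25.0% of all genes, and 22 were higher and 1 lower between the siRNAs, against 35.9% and 26.5%. Among the members in these counts, HIST1H1PS1, HIST1H3G, HIST1H4J and HIST3H2BB reached the minimum for testing only through Si-KDM4C#2. HIST1H3J reached it only through Scramble and HIST2H3D only through the knockdown groups. Where a member was counted for being high in such a group, it carries no independent weight.

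Of the 9 members called lower under Si-KDM4C#1, 7 were called higher under Si-KDM4C#2 than under Si-KDM4C#1. For these the difference between the siRNAs itself passed the test. Both calls use the same Si-KDM4C#1 libraries, so members picked for low values there are favoured in the comparison between the siRNAs. The matching share of all genes called lower was not counted, so this overlap is not shown to be particular to histone genes. HIST1H4H was called lower with each siRNA and HIST1H2AJ higher with each. HIST1H2AJ, with a Scramble mean of 0.703 FPKM, passed the minimum for testing only through the knockdown groups, where it was high. Its calls, and its part in the counts of higher members, therefore carry no independent weight. In all, 12 members were called in at least 1 comparison and 23 in none. The count of 9 lower members became 17 with a pseudocount of 0.1 and 19 when limma voom was run on the recovered fragments, where 9.76% and 11.3% of all genes were called lower. The 8 members higher under Si-KDM4C#2 than under Si-KDM4C#1 became 19 and 20, where 9.24% and 9.70% of all genes were called higher. Voom had another minimum, 10 fragments in at least 3 libraries, and so tested 38 members among 16547 genes.

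**Figure D3:**
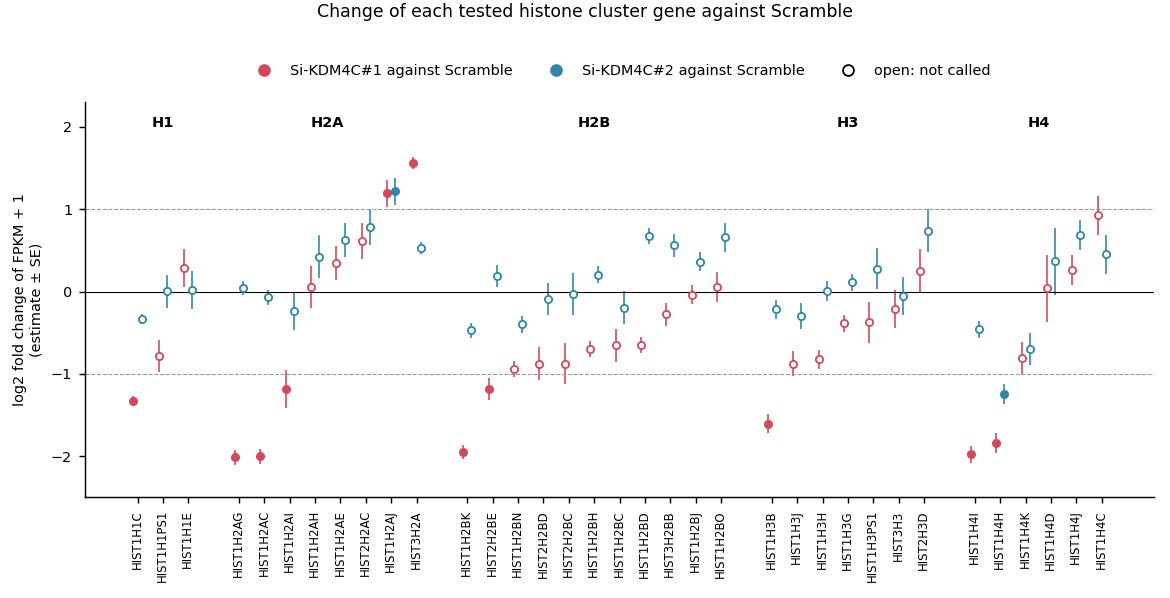
Log2 fold change of FPKM + 1 against Scramble for the 35 tested members, under Si-KDM4C#1 and Si-KDM4C#2 side by side; points are limma estimates, bars are standard errors, filled points were called and dashed lines mark the fold limit. The 9 filled points below 0 under Si-KDM4C#1 are spread over all classes, and 1 gene, HIST1H4H, has a filled point below 0 under Si-KDM4C#2.

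Linker histone H1 binds the DNA between nucleosomes and compacts chromatin. HIST1H1C (chr6:26055787-26056428, minus strand, 1 exon), which encodes H1.2, had 83.8, 76.7 and 80.3 FPKM in the Scramble libraries, 28.9, 32.7 and 32.4 under Si-KDM4C#1 and 59.8, 66.4 and 64.6 under Si-KDM4C#2. The groups did not overlap, and Si-KDM4C#2 lay between the others. Its log2 fold change was -1.33 ± 0.06 (SE) under Si-KDM4C#1 (limma, adjusted p = 7.76e-08). With Si-KDM4C#2 it was -0.33 ± 0.06 (adjusted p = 0.000932), which did not reach the fold limit. Between the siRNAs HIST1H1C was 1.00 higher under Si-KDM4C#2 on the log2 scale (adjusted p = 5.72e-07), at the edge of the fold limit, and it lay under that limit with median-ratio scaling (0.91), with voom (0.90) and without Si-KDM4C#1 replicate 1 (0.95), Si-KDM4C#2 replicate 2 (0.97) or Si-KDM4C#2 replicate 3 (0.99). HIST1H1E, which encodes H1.4, had 1.58, 1.33 and 0.619 FPKM in Scramble, 2.06, 0.999 and 1.90 under Si-KDM4C#1 and 1.71, 0.852 and 1.01 under Si-KDM4C#2. All 3 groups of HIST1H1E overlapped and none of its comparisons passed the test. HIST1H1PS1, a pseudogene whose exons overlap another gene, had a log2 fold change of -0.78 under Si-KDM4C#1 and was not called on the log2(FPKM + 1) scale. It was called lower there with a pseudocount of 0.1 (-2.29) and with voom (-2.62).

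H2A genes moved in opposite directions under Si-KDM4C#1. H2A pairs with H2B in the dimers that complete the nucleosome. HIST1H2AC (chr6:26124145-26139116, plus strand) had 11.8, 12.7 and 13.8 FPKM in Scramble, 2.16, 2.46 and 2.69 under Si-KDM4C#1 and 10.4, 12.8 and 13.2 under Si-KDM4C#2. Its mean was 5.24-fold lower under Si-KDM4C#1, and its Si-KDM4C#2 libraries overlapped Scramble. The log2 fold changes of HIST1H2AC were -2.0 ± 0.09 under Si-KDM4C#1 (limma, adjusted p = 1.18e-07) and -0.07 ± 0.09 under Si-KDM4C#2 (adjusted p = 0.532), and it was 1.93 higher under Si-KDM4C#2 than under Si-KDM4C#1 (adjusted p = 1.96e-07).

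HIST1H2AG (chr6:27133042-27135291, plus strand) followed the same course from a lower level. Its values were 7.07, 6.04 and 6.90 FPKM in Scramble, 0.738, 0.883 and 1.08 under Si-KDM4C#1 and 7.43, 6.37 and 6.96 under Si-KDM4C#2. The mean was 7.41-fold lower under Si-KDM4C#1, the largest such ratio among the called members, with log2 fold changes of -2.01 ± 0.09 (limma, adjusted p = 6.78e-08) under Si-KDM4C#1 and 0.05 ± 0.09 under Si-KDM4C#2. Its stem-loop is of the rarer ggctctTTTCagggcc version.

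HIST3H2A (chr1:228456979-228457873, minus strand), from the small cluster on chromosome 1, rose. It had 13.9, 13.6 and 15.3 FPKM in Scramble, 42.1, 41.6 and 48.1 under Si-KDM4C#1 and 19.2, 22.3 and 21.3 under Si-KDM4C#2. Every knockdown library lay above every Scramble library, and Si-KDM4C#1 was the highest group. The log2 fold change was 1.56 ± 0.07 under Si-KDM4C#1 (limma, adjusted p = 1.15e-07) and 0.53 ± 0.07 under Si-KDM4C#2 (adjusted p = 0.000202, under the fold limit). Si-KDM4C#2 was -1.03 ± 0.07 against Si-KDM4C#1 (adjusted p = 1.87e-06), and this call was lost without Si-KDM4C#1 replicate 3 (-0.97), without Si-KDM4C#2 replicate 1 (-0.97) and after quantile normalization (-0.98), under which the members counted 8 higher and 0 lower between the siRNAs.

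HIST1H2AI and HIST1H2AJ have to be read together, since their transcripts are near-identical. Of the 100-base windows of HIST1H2AI, 57.7% also occur in HIST1H2AJ, and 80.9% of those of HIST1H2AJ occur in HIST1H2AI, so the counting could split their reads either way. HIST1H2AI (chr6:27808199-27808701, plus strand) had 5.14, 4.25 and 2.78 FPKM in Scramble, 1.65, 0.953 and 0.990 under Si-KDM4C#1 and 2.05, 4.09 and 3.85 under Si-KDM4C#2. HIST1H2AJ (chr6:27814354-27814740, minus strand) had 0.856, 0.650 and 0.603 FPKM in Scramble, 3.58, 3.36 and 1.93 under Si-KDM4C#1 and 2.83, 3.49 and 2.57 under Si-KDM4C#2. Both were called under Si-KDM4C#1, HIST1H2AI lower at -1.19 ± 0.23 (limma, adjusted p = 0.00135) and HIST1H2AJ higher at 1.19 ± 0.17 (adjusted p = 0.00015), and HIST1H2AJ was also higher under Si-KDM4C#2 at 1.22 ± 0.17 (adjusted p = 0.000175). The Scramble value of HIST1H2AJ rested on 13 fragments in all, and both calls are given as uncertain. HIST1H2AE, HIST1H2AH and HIST2H2AC, at group means of 1.10 to 3.62 FPKM, had positive log2 fold changes with both siRNAs (0.05 to 0.78) and were not called. HIST2H2AC was called higher under Si-KDM4C#2 with a pseudocount of 0.1 (1.08) and with voom (1.02).

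H2B, the partner of H2A, held the most abundant member. HIST1H2BK (chr6:27146418-27146798, minus strand) had 109, 95.6 and 93.9 FPKM in Scramble, 22.2, 24.8 and 28.4 under Si-KDM4C#1 and 75.4, 68.0 and 70.8 under Si-KDM4C#2. The groups did not overlap. The log2 fold change was -1.95 ± 0.09 under Si-KDM4C#1 (limma, adjusted p = 8.92e-08) and -0.47 ± 0.09 under Si-KDM4C#2 (adjusted p = 0.00123, under the fold limit), a difference of 1.47 between the siRNAs (adjusted p = 6.21e-07). Of the windows of HIST1H2BK, 28.4% occur also in H2BFS.

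HIST2H2BE (chr1:149884459-149886652, minus strand) fell under Si-KDM4C#1 alone among the comparisons with Scramble. It had 4.32, 5.65 and 5.56 FPKM in Scramble, 1.29, 1.56 and 2.35 under Si-KDM4C#1 and 6.09, 5.83 and 6.04 under Si-KDM4C#2. Its log2 fold changes were -1.19 ± 0.14 (limma, adjusted p = 3.81e-05) and 0.19 ± 0.14 (adjusted p = 0.267), and the difference between the siRNAs was 1.37 (adjusted p = 1.68e-05).

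HIST1H2BD (chr6:26158146-26171349, plus strand) differed between the siRNAs from both sides of Scramble. It had 8.14, 6.93 and 9.31 FPKM in Scramble, 4.45, 5.35 and 4.57 under Si-KDM4C#1 and 13.4, 13.1 and 13.9 under Si-KDM4C#2, with no overlap between groups. Neither difference from Scramble reached the fold limit (-0.65 and 0.67 on the log2 scale, each ± 0.09), and the difference between the siRNAs did, at 1.32 (limma, adjusted p = 1.85e-06).

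The other 8 tested H2B genes were called in none of the comparisons on the log2(FPKM + 1) scale. With Si-KDM4C#1, HIST1H2BN (-0.94), HIST2H2BC (-0.88), HIST2H2BD (-0.88), HIST1H2BH (-0.70) and HIST1H2BC (-0.65) passed the false discovery rate but not the fold limit, whereas HIST3H2BB (-0.28), HIST1H2BJ (-0.04) and HIST1H2BO (0.06) did not pass the false discovery rate. With voom, HIST1H2BN (-1.84, adjusted p = 5.27e-10), HIST2H2BD (-1.39), HIST1H2BH (-1.08) and HIST1H2BC (-1.07) were called lower under Si-KDM4C#1. Exons of HIST1H2BN overlap those of HIST1H2AL on the same strand and of HIST1H2AK on the opposite strand. Voom also called HIST3H2BB higher under Si-KDM4C#2 than under Si-KDM4C#1 (1.58, adjusted p = 2.99e-05). HIST2H2BC and HIST2H2BD, the latter a pseudogene, were listed at almost the same level, with group means of 2.54 and 2.51 FPKM in Scramble. HIST2H2BD is annotated as overlapping HIST2H2BC on the opposite strand, and without strand in the counting their reads cannot be told apart.

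H3, the histone that KDM4C acts on as a protein, had 1 called gene on the log2(FPKM + 1) scale. HIST1H3B (chr6:26031650-26032060, minus strand) had 7.25, 9.33 and 9.37 FPKM in Scramble, 2.02, 2.33 and 2.12 under Si-KDM4C#1 and 7.38, 8.44 and 6.13 under Si-KDM4C#2. The Si-KDM4C#1 libraries lay below all others, while Si-KDM4C#2 and Scramble overlapped. Its log2 fold change was -1.60 ± 0.12 under Si-KDM4C#1 (limma, adjusted p = 1.64e-06) and -0.22 ± 0.12 under Si-KDM4C#2 (adjusted p = 0.137), and it was 1.39 higher under Si-KDM4C#2 than under Si-KDM4C#1 (adjusted p = 5.45e-06). HIST1H3H had 5.09, 6.0 and 5.90 FPKM in Scramble, 2.91, 2.1 and 3.37 under Si-KDM4C#1 and 5.58, 5.40 and 6.06 under Si-KDM4C#2, a log2 fold change of -0.82 under Si-KDM4C#1 that fell short of the fold limit (limma, adjusted p = 0.000162). The other 5 tested H3 genes lay between -0.87 (HIST1H3J) and 0.25 (HIST2H3D) under Si-KDM4C#1 and were not called on that scale. With a pseudocount of 0.1, HIST1H3J (-2.08) and HIST1H3H (-1.01) were called lower under Si-KDM4C#1. Voom also called HIST1H3J lower there (-2.29, adjusted p = 0.000649). HIST1H3J overlaps exons of another gene, and 51.3% of the windows of HIST2H3D occur in other genes.

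H4 was the only class with a gene called lower with each siRNA. HIST1H4H (chr6:26277609-26285638, minus strand) had 9.13, 8.55 and 9.71 FPKM in Scramble, 2.46, 1.58 and 1.55 under Si-KDM4C#1 and 2.83, 3.36 and 3.69 under Si-KDM4C#2. All 6 knockdown libraries lay far below Scramble, and the 2 knockdown groups did not overlap. The log2 fold changes were -1.83 ± 0.12 (limma, adjusted p = 9.41e-07) and -1.24 ± 0.12 (adjusted p = 1.99e-05), and the difference of 0.59 between the siRNAs (adjusted p = 0.00206) did not reach the fold limit. HIST1H4I (chr6:27138588-27139881, plus strand) had 11.6, 13.6 and 12.5 FPKM in Scramble, 2.14, 3.07 and 2.21 under Si-KDM4C#1 and 9.57, 8.69 and 8.33 under Si-KDM4C#2. Its groups did not overlap either, but the decline under Si-KDM4C#2 was small, with log2 fold changes of -1.98 ± 0.10 (limma, adjusted p = 2.05e-07) and -0.46 ± 0.10 (adjusted p = 0.00349), and it was 1.51 higher under Si-KDM4C#2 than under Si-KDM4C#1 (adjusted p = 1.37e-06).

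The remaining 4 tested H4 genes had no call on the log2(FPKM + 1) scale. HIST1H4C had a log2 fold change of 0.93 under Si-KDM4C#1 (limma, adjusted p = 0.00652) from a Scramble mean of 0.461 FPKM. It was tested only through Si-KDM4C#1, the group in which it was high, so this value carries no independent weight. HIST1H4D, at 0 in a Scramble library, had 0.04 ± 0.41 under Si-KDM4C#1. HIST1H4K (-0.81) and HIST1H4J (0.26) share their windows, 100% of the former and 77.7% of the latter, so their separate values are uncertain. In all, 25 of 70 members and 13 of the 34 tested members with a transcript shared at least 1 window of 100 bases with another gene. HIST1H1C, HIST1H2AC, HIST3H2A, HIST1H4H and HIST1H4I shared none.

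Histone H2A and H2B genes often lie head to head, with a short stretch between their start sites that serves both. Among the members 14 head-to-head pairs lay within 1000 bases, 138 to 953 bases apart, of which 13 joined an H2A with an H2B gene and 1 joined HIST1H3J with HIST1H2BO. In 6 of them both genes were tested, 5 of these H2A with H2B. Exactly 1 of the genes was called under Si-KDM4C#1 in each of these 5, and neither was called in the H3 and H2B pair. The count of pairs with both genes called the same way was 0 of 6, and became 1 of 6 with a pseudocount of 0.1 and 1 of 5 with voom, since HIST1H2BC was then called lower as HIST1H2AC was (-1.05 and -1.07). HIST1H2BJ and HIST1H2AG, 291 bases apart, showed such a contrast. HIST1H2BJ had 5.58, 5.43 and 4.73 FPKM in Scramble and 4.02, 6.13 and 5.24 under Si-KDM4C#1, which overlap, while the mean of HIST1H2AG was 7.41-fold lower. HIST2H2BE fell (-1.19) while HIST2H2AC, 322 bases away, had a log2 fold change of 0.61 that was not called. HIST3H2A rose (1.56) while HIST3H2BB, 233 bases away, had -0.28. HIST1H2AC fell (-2.0) and its partner HIST1H2BC had -0.65, which was not called. The differences within pairs were not tested, and in these 5 pairs the uncalled partner had the lower mean in Scramble, where this scale understates changes more.

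**Figure D4:**
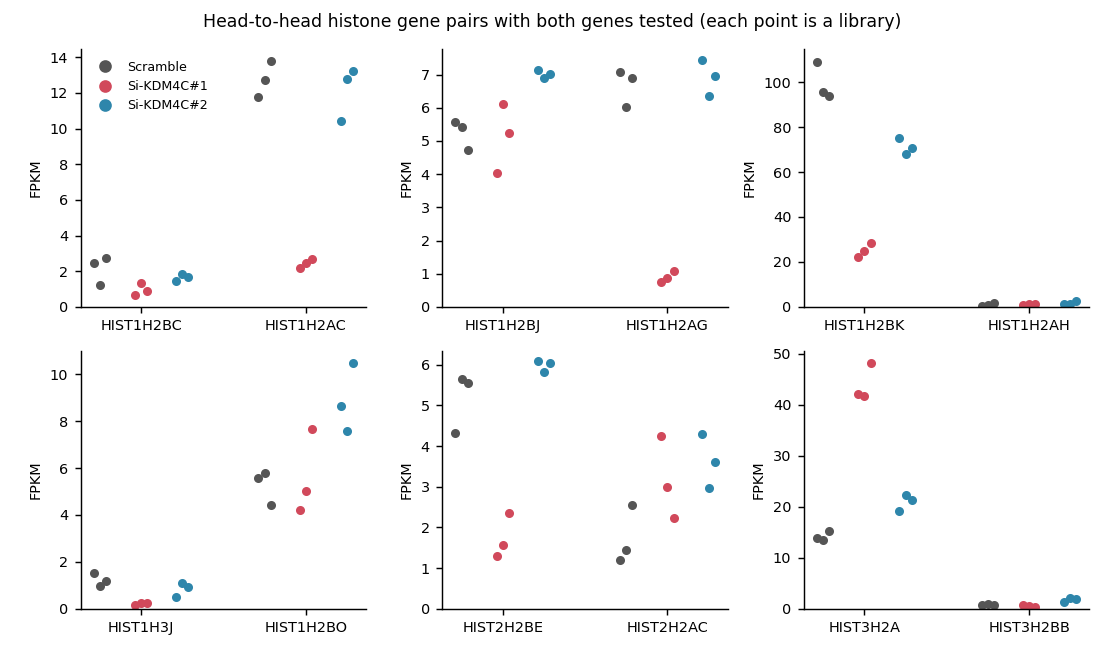
FPKM of both genes of the 6 head-to-head pairs in which both were tested, with each point a library coloured by siRNA group and axes starting at 0. HIST1H2AG lies at 0.738 to 1.08 FPKM under Si-KDM4C#1 while its neighbour HIST1H2BJ lies at 4.02 to 6.13, and HIST3H2A lies at 41.6 to 48.1 above HIST3H2BB.

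The 3′ ends of the annotated transcripts were compared with the calls, since the stem-loop marks where the replication-dependent mRNA stops. Of the 33 members with a stem-loop, 23 had a transcript that ran over 100 bases past it and 10 had one that ended near it. Among the 13 tested members of the long kind, 5 were called lower and 1 higher under Si-KDM4C#1, and among the 5 tested members that ended near the stem-loop, 1 was called lower. Of 16 tested members with a transcript and no match, 3 were called lower and 1 higher. Of all 35 tested members, 9 were called lower and 2 higher, and of all genes tested 4.83% and 4.04%. Differences between these kinds of member were not tested. HIST1H2AG ran 1761 bases past its stem-loop, HIST2H2BE 1729, HIST1H4H 1655 and HIST1H2AC 1128. HIST3H2A, which rose, ran 390 bases past. Members whose longest form ends at the stem-loop have all of their value from that stretch. HIST1H2BD, counted as ending near it from a transcript of 496 bases, also has a longer form of 789 bases. Its value need not come from the shorter form alone. The value of a long gene is an average over both parts, and the deposited values do not separate them.

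**Figure D5:**
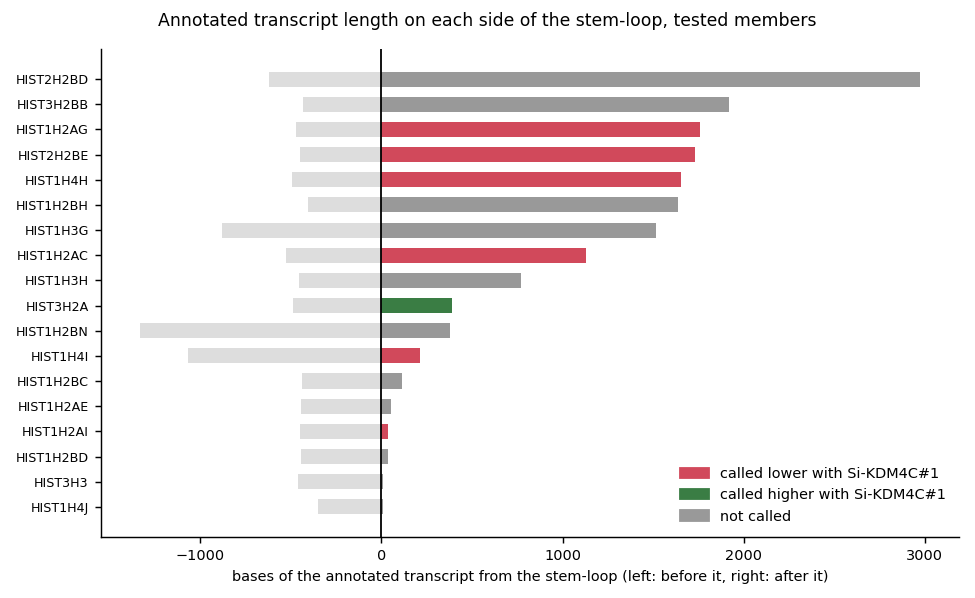
Length in bases of the annotated transcript before (left, grey) and after (right) the stem-loop for the 18 tested members that have one, with the right part coloured by the call under Si-KDM4C#1. Genes called lower run from 39 bases (HIST1H2AI) to 1761 bases (HIST1H2AG) past the stem-loop, and uncalled genes cover the same range and beyond.

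Promoter motifs were likewise set beside the calls. Of the 9 members called lower under Si-KDM4C#1, 8 had a promoter window, of which 5 held TATAAA, 7 held CCAAT and 4 held the octamer. Among the 27 tested members with a window, 19 held TATAAA, 23 held CCAAT and 11 held the octamer (70.4%, 85.2% and 40.7%), so the called members (62.5%, 87.5% and 50%) lay near the share of all tested members.

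Histone mRNA output was next set beside genes that act on it. Of 25 tested genes of histone transcription and mRNA processing, 2 were called higher and none lower under Si-KDM4C#1 by limma, against 4.04% and 4.83% of all genes. None was called under Si-KDM4C#2. Without the fold limit, 13 were higher and 8 lower under Si-KDM4C#1, against 31.7% and 33.9% of all genes. Under Si-KDM4C#2 13 were higher and 6 lower, against 34.4% and 25.0%. The lower ones were a share near that of all genes, and the counts were the same at an unadjusted p below 0.05. Voom called 2 higher and 1 lower under Si-KDM4C#1, and 1 higher and 0 lower under Si-KDM4C#2. CCNE1, which encodes cyclin E1, had 2.55, 2.49 and 2.63 FPKM in Scramble, 8.40, 6.96 and 8.42 under Si-KDM4C#1 and 4.28, 3.96 and 4.44 under Si-KDM4C#2. Its log2 fold changes were 1.32 ± 0.07 under Si-KDM4C#1 (limma, adjusted p = 3.15e-07) and 0.55 ± 0.07 under Si-KDM4C#2. CCNE2, which encodes cyclin E2 and is named after its values were seen, lay on the other side, with 6.63, 5.45 and 5.65 FPKM in Scramble, 2.93, 2.90 and 3.43 under Si-KDM4C#1 and 6.21, 5.57 and 6.39 under Si-KDM4C#2. Its log2 fold change of -0.76 under Si-KDM4C#1 (limma, adjusted p = 2.71e-05) did not reach the fold limit. ZNF473, a zinc finger protein of the histone 3′-end processing complex, was called higher under Si-KDM4C#1 (1.06, adjusted p = 1.97e-06) and stood at 0.92 under Si-KDM4C#2. LSM1, of the ring that starts mRNA decay, was 1.16 higher under Si-KDM4C#2 than under Si-KDM4C#1 (adjusted p = 9.48e-05). SLBP, named here after its values were seen, had a log2 fold change of 0.28 under Si-KDM4C#1 and -0.02 under Si-KDM4C#2 and was not called.

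Replacement histones are made also outside S phase, mostly from polyadenylated mRNAs, and several were higher after knockdown. Of 10 tested genes, 1 was called higher under Si-KDM4C#1 and 4 under Si-KDM4C#2, against 4.04% and 2.6% of all genes tested. None was called lower by limma, and the medians were 0.56 and 0.66 on the log2 scale. At the false discovery rate alone, 8 were higher and 1 lower under Si-KDM4C#1, against 31.7% and 33.9% of all genes. Under Si-KDM4C#2 8 were higher and 0 lower, against 34.4% and 25.0%. The counts were the same at an unadjusted p below 0.05, and voom called none lower. Their summed level was 549 to 560 FPKM in the Scramble libraries, 752 to 793 under Si-KDM4C#1 and 873 to 923 under Si-KDM4C#2. H2AFX, which encodes the H2A variant phosphorylated at DNA breaks, had 46.3, 43.7 and 44.4 FPKM in Scramble, 72.0, 74.5 and 76.7 under Si-KDM4C#1 and 133, 115 and 120 under Si-KDM4C#2, and was called higher under Si-KDM4C#2 (1.43, limma, adjusted p = 6.35e-08). H2AFJ was called higher with each siRNA (1.15 and 1.38). CENPA, the centromeric H3 variant, and H1FX, a linker histone variant, were called higher under Si-KDM4C#2 (1.42 and 1.08) and stood at 0.94 and 0.90 under Si-KDM4C#1. These 4 genes lay above Scramble in every knockdown library. They were named because they were called, so this separation carries no independent weight.

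Histone chaperones carry histones to and from DNA, and several fell under Si-KDM4C#1. Of 22 tested genes, 4 were called lower under Si-KDM4C#1 and 1 under Si-KDM4C#2, against 4.83% and 2.3% of all genes tested. None was called higher against Scramble by limma or by voom (7 and 13 higher at an unadjusted p below 0.05). At the false discovery rate alone, 7 were higher and 8 lower under Si-KDM4C#1, against 31.7% and 33.9% of all genes. Under Si-KDM4C#2 12 were higher and 4 lower, against 34.4% and 25.0%. NAP1L1, a chaperone of H2A and H2B, had 25.6, 28.0 and 29.9 FPKM in Scramble, 4.16, 4.43 and 4.28 under Si-KDM4C#1 and 22.0, 24.0 and 23.3 under Si-KDM4C#2, with log2 fold changes of -2.44 ± 0.06 (limma, adjusted p = 4.97e-09) and -0.26 ± 0.06. SUPT16H, a subunit of the FACT complex, fell under Si-KDM4C#1 (-1.29) and stood at 0.75 under Si-KDM4C#2, and the difference of 2.04 passed the test (adjusted p = 4.48e-09). ATRX, which deposits H3.3 at heterochromatin with DAXX, fell under Si-KDM4C#1 (-1.44) and had -0.06 under Si-KDM4C#2. ANP32E, which removes H2A.Z, fell with each (-1.88 and -1.73).

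Genes of S phase moved in both directions. Of 42 tested, 4 were called higher and 3 lower under Si-KDM4C#1 by limma, against 4.04% and 4.83% of all genes tested. None was called under Si-KDM4C#2 by limma or by voom. At the false discovery rate alone, 19 were higher and 14 lower under Si-KDM4C#1, against 31.7% and 33.9% of all genes. Under Si-KDM4C#2 24 were higher and 8 lower, as at an unadjusted p below 0.05, against 34.4% and 25.0%. The median log2 fold changes of the S phase genes were 0.09 and 0.18. Their summed level was 1380 to 1419 FPKM in Scramble, 1636 to 1699 under Si-KDM4C#1 and 1554 to 1589 under Si-KDM4C#2. UNG, a uracil glycosylase of replicating DNA, rose under Si-KDM4C#1 (1.65, limma, adjusted p = 9.40e-09) and stood at 0.98 under Si-KDM4C#2, and UHRF1, which maintains DNA methylation, rose under Si-KDM4C#1 (1.15) and stood at 0.61. USP1, a deubiquitinase of DNA repair, and ATAD2, a chromatin ATPase, fell under Si-KDM4C#1 (-1.52 and -1.37) and stood at 0.14 and 0.07 under Si-KDM4C#2.

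RNAs that carry no poly(A) tail varied widely within groups. Of 22 on the list 12 were listed and 5 were tested, and their summed level was 415 to 1099 FPKM in Scramble, 645 to 1271 under Si-KDM4C#1 and 380 to 768 under Si-KDM4C#2, nearly all of it from MALAT1 and from RN7SL2, the latter named after its values were seen. None was called under Si-KDM4C#1 by limma or by voom (0 higher and 1 lower at an unadjusted p below 0.05), and MALAT1, a nuclear RNA with a triple-helix end, was called lower under Si-KDM4C#2 (-1.06, adjusted p = 0.000157), with -0.87 under Si-KDM4C#1. RNU4ATAC, a small nuclear RNA of the minor spliceosome, had 1.02, 0.506 and 1.85 FPKM under Si-KDM4C#2 and was listed at 0 in every Si-KDM4C#1 library, so it was tested only through the group in which it was high. No fold change is given for it, and voom called no gene of this list higher between the siRNAs. The histone sums of the Scramble libraries spanned 314 to 328 FPKM. The part of RNA selection in the histone values was not tested.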

How the data were processed

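Each of the 9 libraries had a deposited table of FPKM values per gene, which the authors made from paired-end reads. Per the labels' processing notes, the tools were FastQC 0.11.5, HISAT2 2.1.0, StringTie 1.3.3b, featureCounts and DESeq 1.28.0 with build GRCh38; the gene annotation and the RNA selection are not given in the sources used here. Gene lengths, positions and transcripts were taken from GENCODE 29, and promoters from RefSeq (GRCh38.p14).

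FPKM values were tested with limma 3.58.1 (trend) in R 4.3.3 on log2(FPKM + 1), with all 9 libraries in 1 fit, for the 14363 of 32906 genes that reached a group mean of 1 FPKM in any group. Two-sided p-values received the Benjamini-Hochberg adjustment over all of them, and genes were called at a false discovery rate below 0.05 and a fold change above 2. The fit was tested on simulated data. Fragments were recovered as FPKM times length times the library total; of the genes with a length, 97.66% came out whole in every library within 0.05 fragments, with totals of 14597503 to 18058556, and these fragments were used for limma voom as an alternative. Values of a few fragments carry a large counting error for their size and are uncertain.

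The labels do not say whether libraries of a group came from separate cultures, so p-values measure the spread between these samples, which may be technical. Between replicates, chi-square tests of the fragments gave 2.58 to 5.75 for each degree of freedom, above sampling noise. The members and the gene lists were chosen with earlier results of these data known. Values in every library are given for members called in any comparison and for the 2 highest of each class. Of the other lists, called genes are named, at most 4 per list by smallest adjusted p. The alternatives were a pseudocount of 0.1, other filters, 2 other scalings, fits on 6 libraries, a replicate block, voom, no fold limit and leaving out each library.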

Additional observations from a re-analysis of the deposited data

Results flagged for a closer look

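HIST1H2BD was the member whose tested effects differed in direction between the siRNAs: it lay 0.65 below Scramble under Si-KDM4C#1 and 0.67 above it under Si-KDM4C#2 on the log2 scale, each past the false discovery rate, and the difference between the siRNAs of 1.32 passed the test itself (limma, adjusted p = 1.85e-06). The groups of 3 libraries are too small for a check of single outlying samples.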

How the results depend on the processing

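No value named here changed sign while called. With a pseudocount of 0.1, members called lower under Si-KDM4C#1 numbered 17, those higher under Si-KDM4C#2 numbered 4 and those higher under Si-KDM4C#2 than under Si-KDM4C#1 numbered 19. The matching shares of all genes were 9.76%, 5.28% and 9.24%. With voom on recovered fragments the counts among 38 tested members were 19 lower under Si-KDM4C#1, 2 higher and 2 lower under Si-KDM4C#2, and 20 higher between the siRNAs. The matching shares of all genes were 11.3%, 5.46%, 6.95% and 9.70%, so the voom counts under Si-KDM4C#2 lay near the shares of all genes. Without the fold limit they were 4 higher and 20 lower under Si-KDM4C#1, 10 higher and 6 lower under Si-KDM4C#2, and 22 higher between the siRNAs, beside shares of all genes of 31.7%, 33.9%, 34.4%, 25.0% and 35.9%. Members tested only through a group where they were high carry no independent weight in any of these counts. With at least 1 FPKM in every library, 15 members were left, 1 was higher under Si-KDM4C#1 and 0 under Si-KDM4C#2, since HIST1H2AJ was no longer tested. Quantile normalization left 0 members lower under Si-KDM4C#2 than under Si-KDM4C#1. KDM4C, not called between the siRNAs at -0.73, was called there at -1.69 with a pseudocount of 0.1 and at -2.13 with voom.

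Leaving out each library gave 2 to 3 higher and 9 to 11 lower members under Si-KDM4C#1, 1 and 1 under Si-KDM4C#2, and 8 to 9 higher and 0 to 1 lower between the siRNAs. KDM4C then ranged from -1.43 to -1.39, from -2.18 to -2.12 and from -0.77 to -0.72 in the 3 comparisons. The replicate number as a block changed no call of a member (2 higher and 9 lower under Si-KDM4C#1), and same-numbered libraries did not deviate together (mean correlation 0.016 over 9 pairs, -0.008 over 18 pairs of different number). The members whose call changed with the pseudocount averaged up to 4.71 FPKM (HIST1H3H).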
